A study of Chlamydomonas reinhardtii with 28 samples.

Results

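The genome assembly of the green alga Chlamydomonas reinhardtii used for these data holds 17 chromosomes and 40 contigs that are not placed on them, named contig_18 to contig_57. The histone peaks on these contigs, 1890 of the 152930 peaks of 18 peak lists, are described here contig by contig. They were chosen by sequence name alone, from chromatin immunoprecipitation sequencing (ChIP-seq) of vegetative cells grown in TAP medium. Each list was called by the authors on 1 library.

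The knockouts dnmt1, which lacks DNMT1, and set3, which lacks SET3, were each studied beside wild-type (WT) cells in the strains CC-5155 of mating type mt+ and CC-5325 of mating type mt-. Antibodies against H3K9me1, H3K4me3 and H3K4me1 came from Abcam and the H3K9me3 antibody from CST. All 4 marks were mapped in dnmt1 and WT, and H3K9me1 alone was also mapped in set3. The labels do not say whether a mutant strain is 1 clone. With 1 library per mark, genotype and strain, there is no replicate error and no test between genotypes, so the mt+ and mt- values are given side by side.

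H3K9me1 is a mark of silent, repeat-rich chromatin in Chlamydomonas, and the enzyme SET3 is known for placing it. DNMT1 maintains cytosine methylation in DNA after replication. H3K4me3 is found at the starts of active genes in most eukaryotes, H3K4me1 often lies beside it, and H3K9me3 is a mark of heterochromatin in animals and fungi. Unplaced contigs are usually sequences that repeats kept an assembler from joining to a chromosome.

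A contig was taken to end at its farthest peak in any list. By that measure the contigs were 4.19 to 120.6 kb long, with a median of 26.2 kb, and together made up 1516 kb or 1.33% of all sequence. Sequence past the last peak is not counted, so true lengths may be greater and percentages of contig length smaller. H3K9me1 gave 111 contig peaks in each dnmt1 list, 72 in set3 of mt+ and 110 in set3 of mt-, against 214 in WT of mt+ and 230 in WT of mt-. H3K9me3 gave 99 and 138 in dnmt1 mt+ and mt-, against 82 and 92 in WT. In all pairs of values below, the mt+ strain stands before the mt- strain. H3K4me3 gave 170 and 154 in dnmt1, against 140 and 159 in WT. H3K4me1 gave 3 and 1 in dnmt1, against 1 and 3 in WT.

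H3K9me1 was dense on the contigs in WT cells. Its peaks covered 25.0% of contig sequence in the WT list of mt+ and 25.4% in that of mt-, against 5.90% and 6.26% of chromosome interiors, the chromosomes without their outermost 50 kb. Those outermost 50 kb, the chromosome ends, carried still more, 34.9% and 35.6%, so dense H3K9me1 was not particular to the contigs. The other marks were sparser on contigs than in interiors. In WT, H3K4me3 covered 5.77% of contig sequence in mt+ and 6.43% in mt-, against 6.34% and 6.81% of chromosome ends and 11.5% and 12.1% of interiors. H3K9me3 covered 3.05% and 3.57% of contig sequence in WT, against 4.49% and 4.82% of ends and 7.39% and 7.93% of interiors. H3K4me1 covered 0.0504% and 0.0961% of contig sequence in WT, against 0.477% and 1.56% of ends and 0.704% and 1.80% of interiors. For H3K4me3 and H3K9me3 the ends were thus nearer to the contigs than to the interiors.

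The contigs differed among themselves more than this average shows. In WT, 6 contigs were under H3K9me1 peaks for at least 50% of their length in both strains and are called dense. They are contig_27, contig_30, contig_33, contig_37, contig_40 and contig_51, together 216 kb. A further 19, together 980 kb, had H3K9me1 on a smaller part and are called patchy, and 15, together 320 kb, had no H3K9me1 peak in either WT list. This grouping was made from the WT H3K9me1 values, so those values describe the groups and are no finding about them. The dense contig with the lowest WT coverage was contig_27, with 85.6% in mt+ and 83.7% in mt-, and the patchy contig with the highest was contig_48, with 45.6% and 44.3%, so the dense contigs lay far above the limit and the highest patchy ones a few points below it.

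On dense contigs, WT H3K9me1 took the form of a few long blocks rather than many separate peaks. The widest WT mt+ contig peak spanned 28.4 kb of contig_30, from 35 to 28407, and the next were 21.2 kb on contig_33, from 77 to 21261, and 20.6 kb on contig_40, from 127 to 20678. Dense contigs held 33 peaks in WT mt+ and 39 in WT mt-, of which 13 in each were at least 5 kb wide, and the median widths were 3631 and 2797 bp. Patchy contigs held 181 and 191 peaks with median widths of 556 and 587 bp. The WT lists of both strains placed these peaks alike: 97.5% of the WT mt+ length on dense contigs and 90.7% on patchy contigs was also under WT mt- peaks.

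Most of what remained of H3K9me1 on contigs in both mutants lay on the dense contigs and on contig_32. These 7 contigs, grouped after their values were seen, held 96.9% (mt+) and 94.2% (mt-) of the contig H3K9me1 length of dnmt1 and 93.8% of that of set3 in each strain, against 55.8% (mt+) and 54.1% (mt-) of that of WT. All other contigs together held 4.10 kb in mt+ and 6.53 kb in mt- of dnmt1, and 2.34 and 4.04 kb of set3, against 168 and 177 kb in WT. H3K9me1 coverage was below WT on all 25 contigs with a WT peak, in each of the 4 mutant lists. The plot of H3K9me1 coverage shows this contig by contig.

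**Figure D1:**
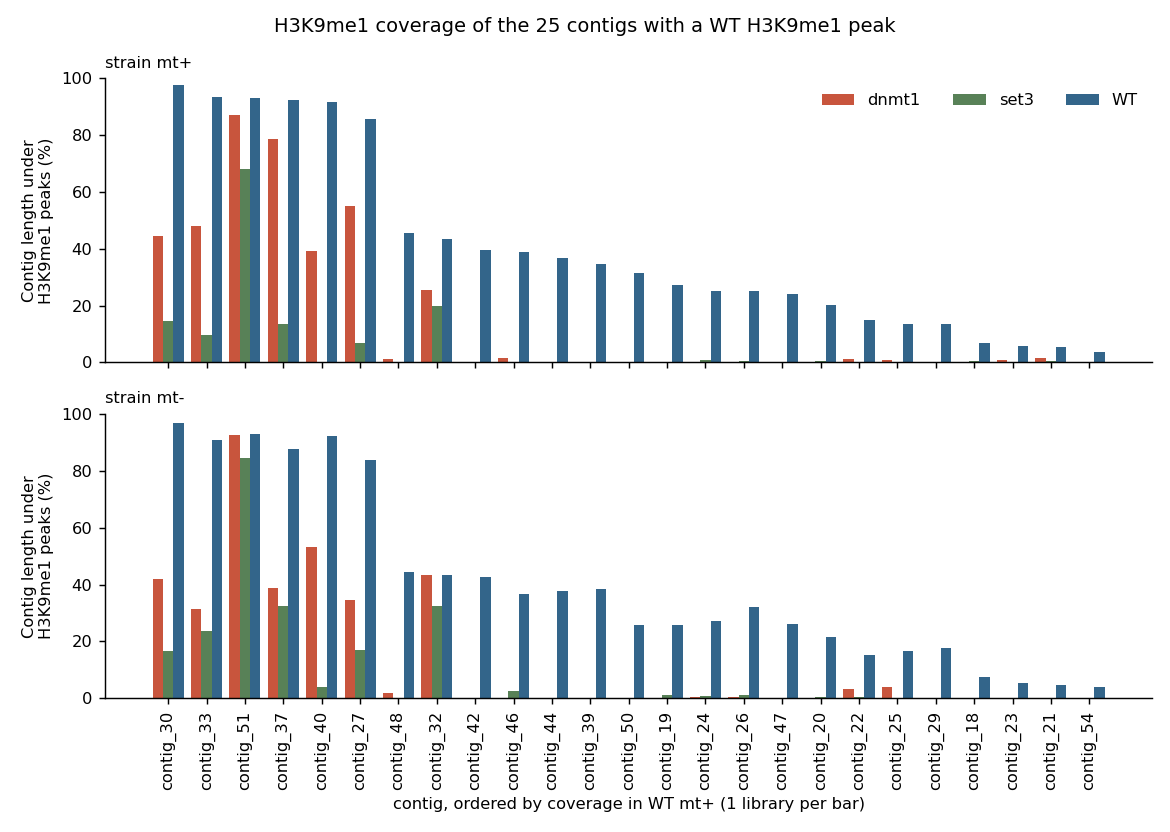
Percent of each contig's length under H3K9me1 peaks, for the 25 contigs with a WT peak, in dnmt1 (red), set3 (green) and WT (blue), with mt+ above and mt- below; each bar is 1 library. Red and green bars stand on the 6 contigs at the left and on contig_32, and are at or near 0 on the other 18.

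A WT peak is called kept when a mutant peak of the same strain overlaps it by at least 1 bp, and lost otherwise. These words describe lists, since a signal just under the authors' threshold gives no peak. On contigs, 183 of 214 WT mt+ H3K9me1 peaks were lost in dnmt1 (85.5%), against 89.8% of the whole list, and 193 of 230 in mt- (83.9%), against 84.0%. In set3, 194 of 214 were lost in mt+ (90.7%), against 86.5% of the whole list, and 196 of 230 in mt- (85.2%), against 82.5%. As shares of peaks these values were near those of the whole lists. By length they were not in dnmt1, which kept 33.8% and 29.3% of the WT length on contigs, against 10.3% and 16.7% of that of the whole lists. Where at least 50% of a WT contig peak had to be overlapped, dnmt1 kept 9.81% and 8.70% of the peaks and set3 0.467% and 4.78%.

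On dense contigs dnmt1 mt+ kept 26 of 33 WT peaks (78.8%, Wilson 95% interval 62.2 to 89.3) and dnmt1 mt- 25 of 39 (64.1%, 48.4 to 77.3). There set3 mt+ kept 14 of 33 (42.4%, 27.2 to 59.2) and set3 mt- 24 of 39 (61.5%, 45.9 to 75.1). On patchy contigs dnmt1 kept 5 of 181 (2.76%, 1.19 to 6.30) and 12 of 191 (6.28%, 3.63 to 10.7), and set3 kept 6 of 181 (3.31%, 1.53 to 7.04) and 10 of 191 (5.24%, 2.87 to 9.37). The intervals cover counting error only, and a long peak has more room to be overlapped than a short one. Counted by length, dnmt1 kept 59.6% (mt+) and 47.4% (mt-) of what WT had on dense contigs, and set3 kept 14.4% and 26.02%. Over the whole lists dnmt1 kept 10.3% and 16.7% of the WT length and set3 11.0% and 14.1%, and at chromosome ends dnmt1 kept 51.7% and 62.0% and set3 38.3% and 46.0%. The share kept was thus higher at chromosome ends than on dense contigs in all mutant lists but dnmt1 mt+. On patchy contigs dnmt1 kept 5.89% and 11.1% of the WT length, and set3 4.82% and 7.60%. Leaving out contig_32, dnmt1 kept 1.22% and 3.70% of the patchy length, and set3 kept 1.20% and 2.01%.

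The dense contigs are described in order of length, by the percent of the contig under H3K9me1 peaks. The longest, contig_27 of 72.3 kb, had 54.9% (mt+) and 34.6% (mt-) in dnmt1, 6.74% and 17.1% in set3, and 85.6% and 83.7% in WT. On contig_30 (39.7 kb) dnmt1 had 44.6% and 42.1%, set3 had 14.4% and 16.8%, and WT had 97.7% and 96.9%. Both mutants were below WT and set3 below dnmt1 on both contigs in both strains.

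The same order held on contig_33 (34.1 kb), with 48.0% and 31.3% in dnmt1, 9.64% and 23.6% in set3, and 93.6% and 91.1% in WT. On contig_37 (27.9 kb) it was 78.7% and 38.8% in dnmt1, 13.7% and 32.3% in set3, and 92.4% and 87.7% in WT, so the dnmt1 strains were further apart there than on the other dense contigs. On contig_40 (26.4 kb) dnmt1 had 39.4% and 53.1%, set3 had no peak in mt+ and 3.96% in mt-, and WT had 91.5% and 92.2%. It was the dense contig with the least H3K9me1 in set3.

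The shortest dense contig, contig_51 of 15.6 kb, stood apart from the other 5. Peaks covered 87.1% and 92.6% of it in dnmt1, 68.3% and 84.7% in set3, and 93.1% and 93.2% in WT, and it had the highest coverage of any contig in each of the 4 mutant lists. The mt+ WT list had a single peak from 1080 to 15556, and the mt- WT list one from 1064 to 15558. In dnmt1 mt- it remained 1 peak, from 1105 to 15509, and in dnmt1 mt+ it was 4 peaks, while set3 had 11 in mt+ and 6 in mt-.

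On contig_32 (34.0 kb) the mark lay over one end only, and less of it was kept than on contig_51 in all mutant lists but dnmt1 mt-. A single WT peak of 14.8 kb in each strain, at 368 to 15179 (mt+) and 383 to 15168 (mt-), made up all of its WT H3K9me1. The share of the whole contig covered was 25.6% and 43.3% in dnmt1, 19.95% and 32.4% in set3, and 43.6% and 43.5% in WT. In dnmt1 mt- the block was again a single peak, from 415 to 15107, whereas dnmt1 mt+ had 14 peaks and set3 had 11 and 13. Of the WT length dnmt1 kept 58.7% and 99.4%, against 93.6% and 99.4% on contig_51. The share kept in set3 was 45.7% and 74.3%, against 73.4% and 91.0% on contig_51.

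On the other dense contigs the blocks were mostly broken into short pieces in the mutants. On contig_30, dnmt1 had 19 and 21 peaks and set3 14 and 17, against 2 and 5 in WT, and the widest piece was 3.93 and 2.39 kb in dnmt1 and 0.699 and 0.664 kb in set3, against 28.4 and 14.2 kb in WT. Over all dense contigs, contig_51 included, dnmt1 had 86 and 96 peaks with median widths of 818 and 575 bp. Peaks of set3 numbered 55 and 86 with median widths of 402 and 398 bp, against 33 and 39 of 3631 and 2797 bp in WT. Peaks of at least 5 kb numbered 3 and 1 in dnmt1 and 0 in both set3 lists, against 13 in each WT list, and 2 of the 3 in dnmt1 mt+ were on contig_37.

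The pieces partly coincided between strains. On dense contigs, 70.5% of the dnmt1 mt+ length was also under dnmt1 mt- peaks, and 92.1% of the dnmt1 mt- length under dnmt1 mt+ peaks. For set3 the shares were 84.1% and 47.4%, the mt- list being the longer one. What set3 held there lay mostly within what dnmt1 held: 98.4% of the set3 length was under dnmt1 peaks in mt+ and 85.0% in mt-, while 23.3% and 46.7% of the dnmt1 length was under set3 peaks. The dnmt1 lists of both strains also shared long gaps where WT had nearly unbroken H3K9me1. On contig_30 no dnmt1 peak lay between 16145 and 30311 in mt+ or between 16206 and 30326 in mt-, and on contig_33 none lay between 13516 and 23150 or between 13523 and 23182. The map of the 7 contigs shows these gaps, where set3 had no peak on contig_30 in either strain and a few short ones on contig_33 in mt-.

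**Figure D2:**
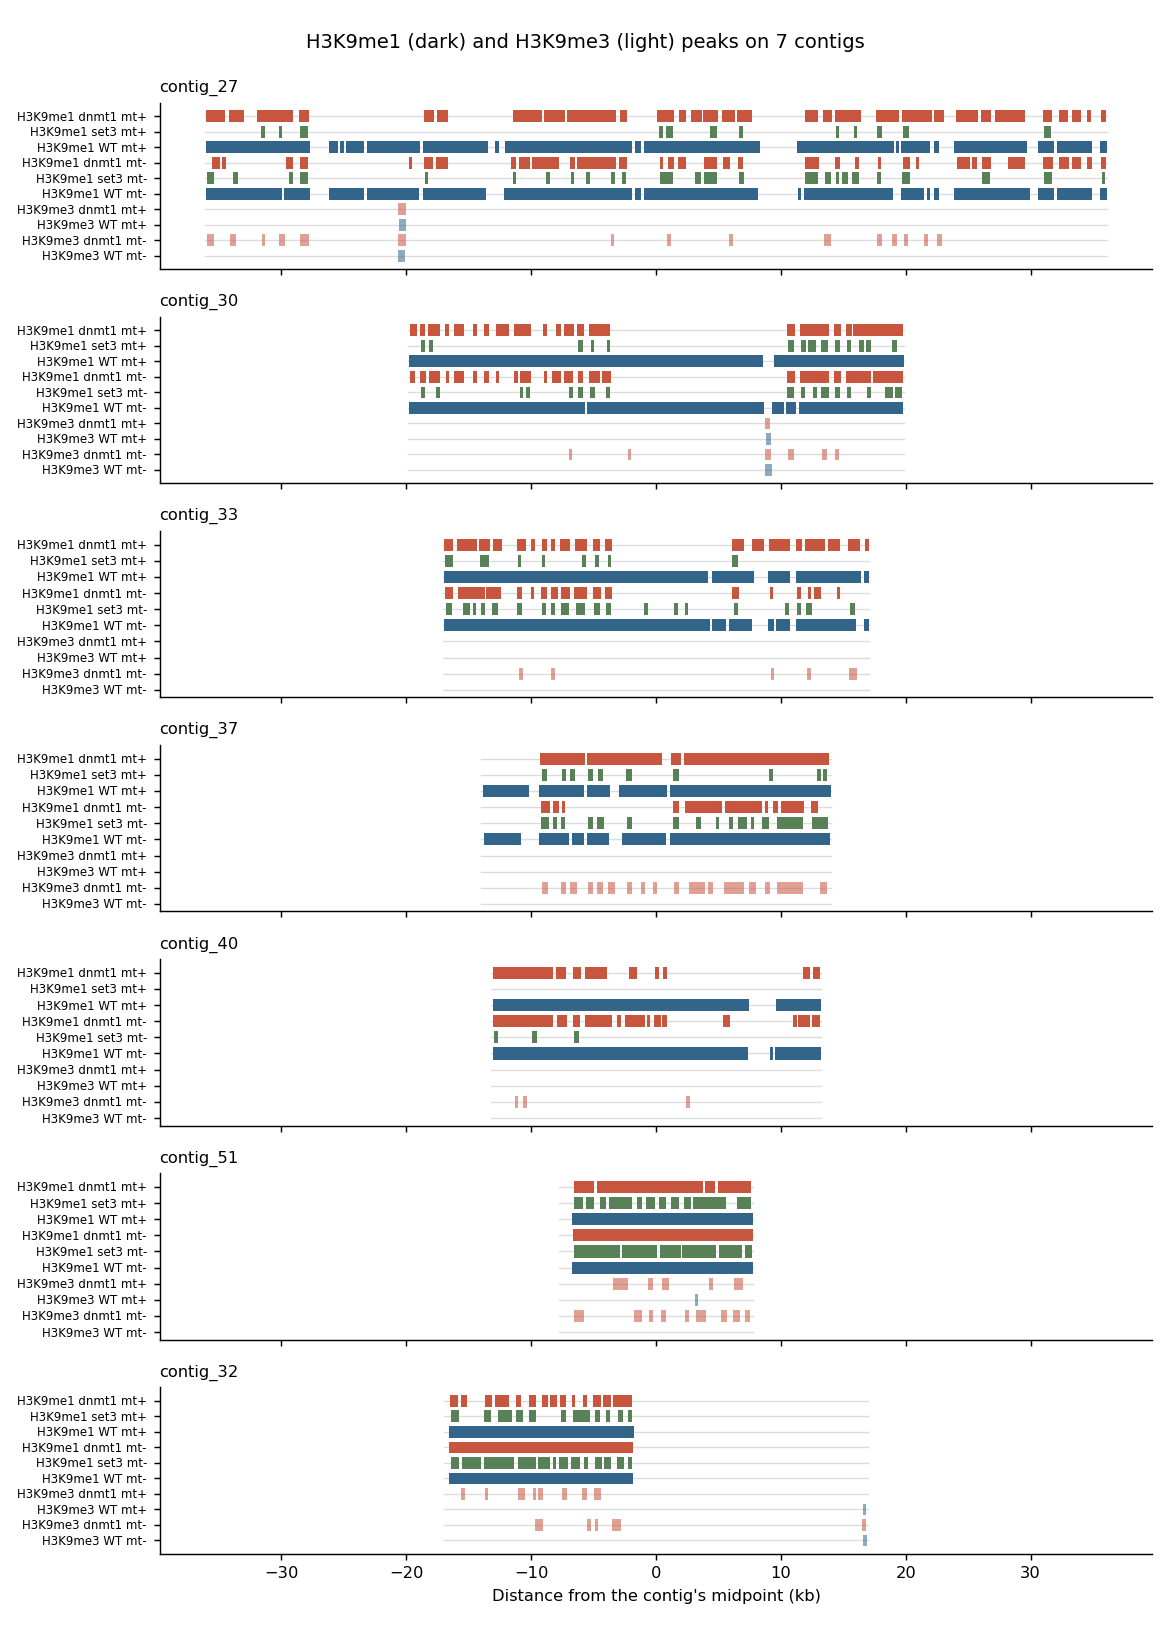
Peaks of H3K9me1 (dark bars) and H3K9me3 (light bars) along 7 contigs, each drawn as distance in kb from the contig's midpoint, in dnmt1 (red), set3 (green) and WT (blue) of each strain; grey lines mark the contig's length. Long blue H3K9me1 blocks face rows of mostly short red and green pieces on 5 contigs, whereas contig_51 stays nearly filled, and light red H3K9me3 bars lie on H3K9me1 blocks where light blue ones are few.

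The local background differed sharply between these contigs. Here it is the background pileup at a peak's summit, in scaled fragments, which the authors' fold enrichment and p-value imply. Because libraries differ in depth, it is given relative to the median at chromosome peaks of the same list. On contig_27, contig_30, contig_33, contig_37 and contig_40 the median background of H3K9me1 peaks was 3.35 to 6.92 times the chromosome median in dnmt1 mt+ and 3.45 to 6.49 times in dnmt1 mt-. It was 5.02 to 9.93 and 5.23 to 9.67 times that median in set3 of the same strains, and 3.78 to 7.46 and 3.66 to 6.93 times in WT. On contig_51 and contig_32 it was 1.10 to 1.53 times the chromosome median in dnmt1, 1.11 to 1.29 times in set3, and 0.958 to 1.29 times in WT. A raised background sets these 5 contigs apart from contig_51 and contig_32, and the part of background in how much H3K9me1 was kept on them was not tested.

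Enrichment over that background also split them, but background was recovered from fold and p-value, so these measures are not independent. On contig_51 the median fold of the peaks was 2.95 and 3.02 in dnmt1 and 2.55 and 2.98 in set3, against 5.59 and 4.39 for the single WT peaks. On contig_32 it was 2.25 and 2.31 in dnmt1 and 2.22 and 2.32 in set3, against 4.35 and 4.42 in WT. The length that H3K9me1 peaks spanned was thus mostly kept on contig_51, while the fold at their summits was lower in all 4 mutant lists than in the WT list of the same strain. On the other 5 contigs folds were low in every list, with medians between 1.30 and 2.28 in dnmt1, between 1.33 and 1.65 in set3, and between 1.38 and 2.50 in WT. On contig_33 and contig_37 the dnmt1 mt+ median fold was higher than that of WT mt+ (2.28 against 1.41 and 2.03 against 1.39), and on contig_27 it was 2.10 against 1.92. In mt- the dnmt1 median was below that of WT on contig_33 (1.46 against 1.53) and on contig_27 (1.48 against 1.81). The mt+ medians are over 20 dnmt1 peaks against 5 in WT on contig_33 and 30 against 18 on contig_27. The highest fold in mt+ was 2.62 against 2.33 on contig_33 and 2.82 against 4.70 on contig_27. Median background on contig_33 and contig_37 was 7.29 and 7.46 times the chromosome median in WT mt+, against 4.33 and 6.92 times in dnmt1 mt+.

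**Figure D3:**
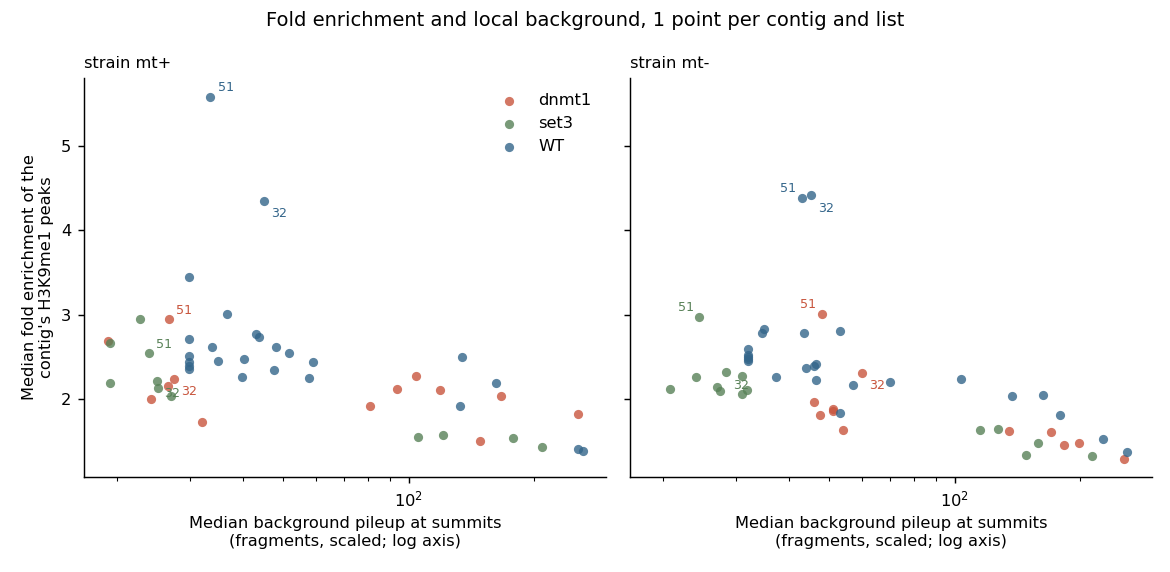
Median fold enrichment (authors' values) against median background pileup at summits (scaled fragments, log axis) of H3K9me1 peaks, 1 point per contig and list, for dnmt1 (red), set3 (green) and WT (blue), with points of contig_51 and contig_32 numbered. Fold is a ratio to the background, so the axes are not independent. Points at high background have low folds in all genotypes, and contig_51 and contig_32 have ordinary backgrounds with the highest WT folds.

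Patchy contigs were nearly emptied of H3K9me1 peaks in the mutants. Of the 19, 12 had no H3K9me1 peak in dnmt1 of mt+ and 13 had none in dnmt1 of mt-, while set3 left 13 and 12 without one. The contig with most WT peaks, contig_19 (104.1 kb), had no peak in either dnmt1 list or in set3 mt+ and had 1.26% in set3 mt-, against 27.4% and 25.7% in WT. The longest contig, contig_18, had no peak in dnmt1 mt+, dnmt1 mt- or set3 mt- and 0.398% in set3 mt+, against 6.72% and 7.54% in WT. On contig_20 (91.4 kb) dnmt1 had no peak and set3 had 0.471% and 0.586%, against 20.3% and 21.7% in WT. The lists differed in depth. Median background at H3K9me1 peaks off the contigs was 24.1 and 39.2 scaled fragments in dnmt1 and 21 and 22 in set3, against 35 and 37.4 in WT. The part of depth in these losses was not tested.

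On 3 patchy contigs a little was left in dnmt1 of both strains. Coverage of contig_22 (74.6 kb) was 1.15% and 3.19% in dnmt1, none and 0.313% in set3, and 14.96% and 15.1% in WT. Coverage of contig_25 (79.5 kb) was 0.836% and 4.12% in dnmt1, with no peak in set3, and 13.6% and 16.8% in WT. On contig_48 (18.6 kb) it was 1.30% and 1.86% in dnmt1, with no peak in set3, and 45.6% and 44.3% in WT. No other patchy contig apart from contig_32 had an H3K9me1 peak in both dnmt1 lists.

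The remaining named patchy contigs had small values in up to 3 of the 4 mutant lists. Contig_24 (85.2 kb) had none and 0.315% in dnmt1 and 0.839% and 0.633% in set3, against 25.2% and 27.1% in WT. Contig_26 (54.3 kb) had none and 0.466% in dnmt1 and 0.501% and 1.00% in set3, against 25.2% and 32.2% in WT. Contig_46 (16.8 kb) had 1.62% and none in dnmt1 and none and 2.41% in set3, against 38.7% and 36.9% in WT. Contig_39 and contig_42 had no mutant peak at all, against 34.7% and 38.5% and against 39.8% and 42.6% in WT. The same was true of contig_29, contig_44, contig_47, contig_50 and contig_54, which held 1 to 4 WT peaks each.

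On contigs, gained H3K9me1 peaks of dnmt1 lay on contig_21 and contig_23 alone, both long and with little WT H3K9me1. Gained means that no WT peak of the same strain overlaps. Contig_21 (97.5 kb) had 1.41% and none in dnmt1 and 0.451% and none in set3, against 5.57% and 4.51% in WT. Contig_23 (88.2 kb) had 0.779% and none in dnmt1 and no peak in set3, against 5.94% and 5.29% in WT. The 4 dnmt1 mt+ peaks of contig_21 and the 1 of contig_23 were all gained, with folds of 1.37 to 1.86 and a median background 6.15 and 10.6 times the chromosome median, against 1.36 and 1.05 times in WT mt+. The dnmt1 mt- list had no counterpart, and the part of background was not tested.

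Gains of H3K9me1 on contigs were otherwise rare. They made up 5 of 111 contig peaks in dnmt1 mt+ (4.50%), against 30.4% of the whole list, and 0 of 111 in dnmt1 mt- (Wilson upper limit 3.35%), against 44.9%. In set3 they made up 1 of 72 in mt+ (1.39%), against 58.3% of the whole list, and 1 of 110 in mt- (0.909%), against 75.6%. In each list the contig share was below that of the whole list. A larger part of contig sequence had WT H3K9me1 for a mutant peak to overlap, and the part of this was not tested. At chromosome ends, where WT H3K9me1 is also dense, dnmt1 gained 8.86% and 9.83% of its peaks, and set3 5.45% and 19.6%. The set3 gains were on contig_24 in mt+ and on contig_35 in mt-, and contig_35 had no H3K9me1 in any other list.

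Of 214 WT mt+ contig peaks, 156 were lost in both strains in dnmt1, on 20 contigs, and 162 in set3, on 22 contigs. The one with the highest fold was the same for both mutants, a 2.07 kb peak of contig_19 from 5895 to 7968, with folds of 5.88 in WT mt+ and 3.73 in WT mt-. The next was at the end of contig_48, 18274 to 18631, with folds of 4.29 and 4.52. A 5.84 kb peak of contig_20, 15292 to 21131, with folds of 3.94 and 3.69, came next for dnmt1, while a 4.26 kb peak of contig_27, 12971 to 17225, with folds of 4.01 and 3.33, came next for set3. Further ones lay on contig_19 from 91434 to 95426 and from 27003 to 27375, and on contig_18 from 116024 to 116418, with WT mt+ folds of 3.92, 3.91 and 3.86. These 7 peaks stood on a background of 29.7 to 54.1 scaled fragments, and no contig peak was gained in both strains in dnmt1 or in set3. Strain by strain, 89.8% (mt+) and 84.0% (mt-) of whole-list WT peaks were lost in dnmt1 and 86.5% and 82.5% in set3. The share lost in both strains was not computed for whole lists.

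Most WT H3K9me3 contig peaks were kept in dnmt1, and dnmt1 had further ones. Covered length was 60.0 and 75.4 kb in dnmt1 mt+ and mt-, against 46.2 and 54.1 kb in WT, or 129.7% and 139% of WT. At chromosome ends the dnmt1 length was 228% and 259% of WT. Of WT contig peaks, 9 of 82 were lost in dnmt1 mt+ (11.0%), against 5.08% of the whole list, and 18 of 92 in dnmt1 mt- (19.6%), against 5.95%. The share lost at chromosome ends was 19.1% and 13.9%. Of dnmt1 contig peaks, 27 of 99 were gained in mt+ (27.3%, Wilson 95% interval 19.5 to 36.8), against 6.96% of the whole list, and 65 of 138 in mt- (47.1%, 39.0 to 55.4), against 6.23%. At chromosome ends 59.8% were gained in each strain, so the contigs lay between ends and the whole list. With only peaks of a −log10 q-value of at least 5 counted, 9 of the contig gains were left in mt+ and 41 in mt-.

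Gains differed by kind of contig. On dense contigs 5 of 7 dnmt1 mt+ peaks and 53 of 55 dnmt1 mt- peaks were gained, on patchy contigs 18 of 52 and 9 of 46, and on contigs without WT H3K9me1 4 of 40 and 3 of 37. WT H3K9me1 peaks cover 91.2% and 89.5% of the dense contigs, so nearly any peak there must meet one. Of the gains there, 5 and 35 lay on H3K9me1 peaks of the dnmt1 list itself, which cover 55.4% and 42.4%. All 5 gains of mt+ and 9 of those of mt- were on contig_51. There the dnmt1 H3K9me1 peaks cover 87.1% and 92.6%, so nearly any peak must meet one as well. Few gains on dense contigs lay on an H3K4me3 peak of the dnmt1 list, 0 of 5 and 2 of 53. All 4 and all 3 gains on contigs without WT H3K9me1 did. H3K4me3 peaks of dnmt1 cover only 1.58% and 1.26% of the dense contigs, against 14.7% and 13.1% of those without WT H3K9me1. Over the whole lists 98.3% and 97.8% of dnmt1 H3K9me3 peaks, gained or not, overlapped an H3K4me3 peak.

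Both strains gained H3K9me3 on contig_51 and contig_32. On contig_51 dnmt1 had 5 peaks in mt+ and 9 in mt-, covering 19.8% and 29.7%, against 1 and 0 in WT, covering 1.69% of the contig in mt+. On contig_32 it had 8 and 5, covering 9.60% and 6.81%, against 1 and 1 in WT, covering 0.804% and 0.845%. The single WT peak of contig_32 lay near its far end, at 33516 to 33788 (mt+) and 33572 to 33858 (mt-). The dnmt1 mt+ peaks of contig_32 ran from 1370 to 12596 and all but 1 of the dnmt1 mt- peaks from 7324 to 14160, within the H3K9me1 block. Median folds were low in dnmt1, 1.84 and 2.03 on contig_51 and 1.81 and 1.96 on contig_32, and the background was 0.919 and 0.887 times the chromosome median on contig_51 and 0.959 and 0.839 times on contig_32.

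The other dense contigs gained H3K9me3 in dnmt1 mt- alone. Contig_37 had 17 peaks covering 40.2% there, and none in dnmt1 mt+ or in WT of either strain. Contig_27 had 1 and 15 peaks covering 0.803% and 8.80% in dnmt1, against 1 and 1 covering 0.754% and 0.773% in WT. Contig_30 had 1 and 6 covering 1.04% and 5.82%, against 1 and 1 covering 1.14% and 1.42% in WT. Contig_33 and contig_40 had 5 and 3 peaks in dnmt1 mt- covering 5.34% and 3.41%, and none in the other 3 lists.

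These mt- gains stood on a raised background. The median background of the H3K9me3 peaks was 7.097 times that at chromosome peaks on contig_27, 5.63 times on contig_33, 5.40 times on contig_37, 3.29 times on contig_40 and 2.56 times on contig_30, with median folds of 1.38, 1.40, 1.44, 1.43 and 1.81. In dnmt1 mt+ the 5 gained peaks of dense contigs, all of them on contig_51, had a median background of 28.9 scaled fragments. Whether background plays a part in the difference between the strains on these contigs was not tested.

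Of the 27 dnmt1 mt+ gains, 10 had a counterpart in dnmt1 mt- and no WT peak in either strain, on contig_22, contig_26, contig_32, contig_51 and contig_56. The highest folds were on contig_22 from 51190 to 51504, with 2.28 in mt+ and 2.51 in mt-, and on contig_32 from 11059 to 11484, with 1.99 and 2.08. Next came contig_32 from 11978 to 12596 (1.87 and 1.80), contig_51 from 14036 to 14757 (1.84 and 2.04), contig_26 from 13931 to 14249 (1.82 and 1.78) and contig_51 from 7162 to 7503 (1.78 and 1.96). Of 82 WT mt+ contig peaks, 4 were lost in both strains. They lay on contig_20 from 70908 to 71228 (WT folds 3.20 and 3.73) and contig_38 from 942 to 1302 (3.16 and 2.32). The others lay on contig_46 from 10009 to 10263 (2.94 and 2.53) and contig_36 from 602 to 889 (1.70 and 2.08). None of the 4 was on a dense contig, but dense contigs held only 3 of the 82. Shares gained or lost in both strains were not computed for whole lists.

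**Figure D4:**
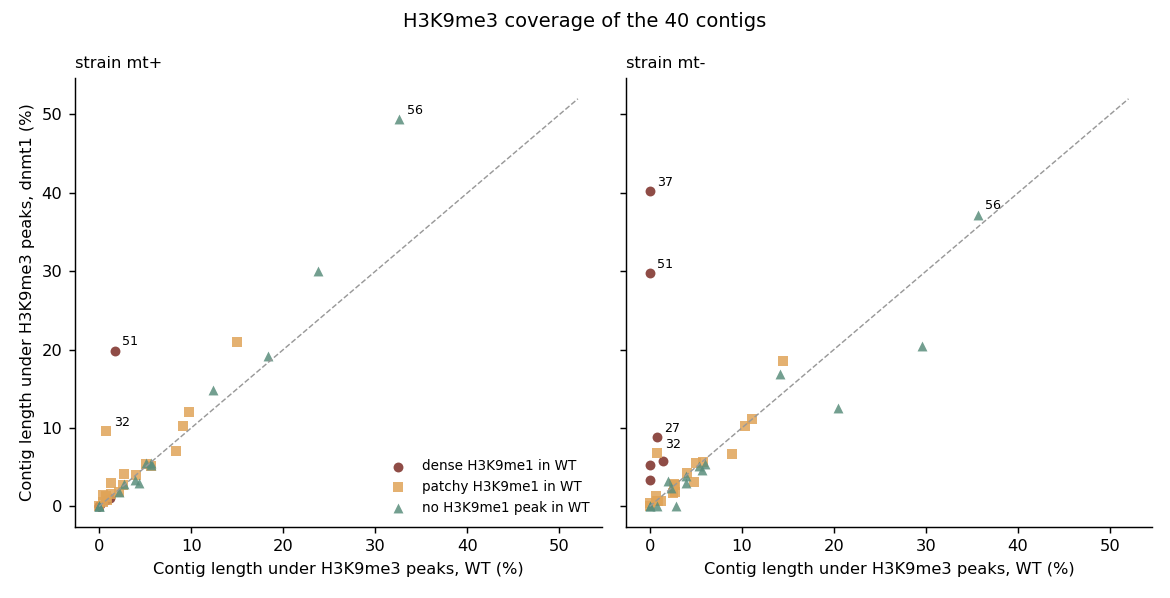
Percent of each contig under H3K9me3 peaks in dnmt1 (vertical) against WT (horizontal), 1 point per contig and strain, marked by H3K9me1 in WT; the dashed line marks equal values and some contigs are numbered. Most contigs lie near the line, while contig_51 and contig_32 lie above it in both strains and contig_37, at 40.2% against 0%, lies above it in mt- alone.

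The widest WT mt+ peaks of H3K9me3 were 1.09 kb on contig_49, from 11555 to 12645, 0.951 kb on contig_24, from 72227 to 73177, and 0.934 kb on contig_52, from 8825 to 9758. The highest WT coverage was on contig_56 (9.665 kb), which has no H3K9me1, with 49.4% and 37.2% in dnmt1 against 32.6% and 35.7% in WT. On contig_36 (28.1 kb) it was 30.1% and 20.4% in dnmt1 against 23.8% and 29.6% in WT, so the strains went opposite ways. The values were 19.2% and 12.54% against 18.3% and 20.5% on contig_49. They were 21.0% and 18.6% against 14.99% and 14.5% on contig_44, a contig of 4.19 kb up to its last peak. On contig_24 dnmt1 had 10.3% and 10.2%, against 9.14% and 10.4% in WT.

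H3K9me3 covered less of the patchy contigs from contig_18 to contig_26, contig_24 apart, than of chromosome interiors in every list. Contig_18 had 1.44% and 0.683% in dnmt1 against 0.398% and 1.25% in WT, contig_19 1.64% and 1.73% against 1.34% and 2.54%, and contig_20 1.90% and 1.88% against 2.14% and 2.72%. On contig_21, contig_22, contig_23 and contig_25 it stayed between 0.468% and 1.34% in dnmt1, against 0% to 0.940% in WT. On contig_26 the values were 2.76% and 2.76% against 2.64% and 2.71%, and on contig_28, which has no H3K9me1, 5.56% and 4.67% against 5.15% and 5.67%. Contig_39, contig_42 and contig_46 had 4.06% to 7.12% in dnmt1 against 3.99% to 8.95% in WT, and contig_48 had 12.1% and 11.1% against 9.80% and 11.1%. No H3K9me3 peak lay on contig_41, contig_50 or contig_57 in any list.

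In WT nearly every H3K9me3 contig peak overlapped an H3K4me3 peak of the same strain, and in dnmt1 most of the exceptions were in mt- on dense contigs. The overlap was 85 of 99 peaks in dnmt1 mt+ (85.9%) and 82 of 138 in dnmt1 mt- (59.4%), against 80 of 82 in WT mt+ (97.6%) and 91 of 92 in WT mt- (98.9%). On dense contigs it was 2 of 7 and 4 of 55 in dnmt1, against 2 of 3 and 2 of 2 in WT. On contigs without WT H3K9me1 it was 39 of 40 and 37 of 37 in dnmt1, against 38 of 39 and 42 of 42 in WT. For the whole lists the share was 98.3% and 97.8% in dnmt1, against 99.6% and 99.7% in WT.

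H3K4me3 was laid out opposite to H3K9me1 between dense contigs and those without WT H3K9me1, but not throughout the patchy contigs. It covered 14.7% and 13.1% of the contigs without WT H3K9me1 in dnmt1, against 13.1% and 14.7% in WT. Of the dense contigs it covered 1.58% and 1.26% in dnmt1, against 0.615% and 0.733% in WT. Chromosome interiors had 11.5% and 12.1% in WT. Patchy contigs together had 4.52% in WT mt+. In that strain's WT, contig_18, contig_21 and contig_23, with 5.57% to 6.72% under H3K9me1, had 1.49% to 1.83%. Contig_24 and contig_48, with 25.2% and 45.6% under H3K9me1, had 18.4% and 12.2%. No correlation over the patchy contigs was computed. No list had an H3K4me3 peak on contig_37 or contig_51. The most covered was contig_36, with 51.4% and 46.5% in dnmt1 against 45.2% and 52.8% in WT, followed by contig_56, with 40.8% and 40.2% against 42.3% and 43.7%. Contig_24 carried the most peaks, 22 and 21 in dnmt1 against 21 and 20 in WT, over 20.2% and 18.7% against 18.4% and 20.2% of its length. The widest WT mt+ peaks were 1.48 kb on contig_48, from 9407 to 10888, and 1.42 and 1.34 kb on contig_24, from 63309 to 64730 and from 83740 to 85080.

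Overlap of H3K4me3 contig peaks with H3K9me1 was seen in WT but not in dnmt1. In dnmt1 no H3K4me3 contig peak overlapped an H3K9me1 peak of the same strain (0 of 170 and 0 of 154, Wilson upper limits 2.21% and 2.43%), against 10 of 140 in WT mt+ (7.14%) and 16 of 159 in WT mt- (10.1%). The dnmt1 lists also held far less H3K9me1 on contigs for a peak to overlap, and the part of this in the lower share was not tested. Over the whole lists the share was 0.0766% and 0.187% in dnmt1, against 2.67% and 3.42% in WT.

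Most WT H3K4me3 contig peaks were kept in dnmt1. In mt+, 1 of 140 was lost (0.714%), against 0.177% of the whole list, and in mt- 14 of 159 (8.81%), against 1.85%. Chromosome ends lost 0 of 146 and 8 of 154 (5.19%). Gained peaks numbered 31 of 170 in dnmt1 mt+ (18.2%, Wilson 95% interval 13.2 to 24.7), against 3.57% of the whole list, and 9 of 154 in dnmt1 mt- (5.84%, 3.10 to 10.7), against 1.62%. Counted against the WT lists of both strains, 15 of the 31 were gained. At chromosome ends the gained shares were 13.1% and 8.18%. Its contig length came to 118% (mt+) and 95.5% (mt-) of that of WT. By contig, dnmt1 mt+ had more H3K4me3 length than WT mt+ on 37 contigs and less on 1, while dnmt1 mt- had more than WT mt- on 14 and less on 24, so the strains differed in direction. The whole lists went the same ways, with a dnmt1 length of 106% of WT in mt+ and 96.9% in mt-.

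Of the 31 dnmt1 mt+ gains, 8 had a counterpart in dnmt1 mt- and no WT peak in either strain. They lay on contig_19, contig_22, contig_25, contig_26, contig_27, contig_30 and contig_33. The highest fold was on contig_19 from 23856 to 24090, with 3.42 in mt+ and 2.62 in mt-, then contig_22 from 51306 to 51698 (2.89 and 2.403), which overlaps the H3K9me3 peak gained there. Others lay on contig_30 from 17556 to 17879 (2.75 and 2.74), contig_25 from 51025 to 51208 (2.47 and 2.99), contig_19 from 40258 to 40468 (2.44 and 2.13) and contig_26 from 13884 to 14348 (2.41 and 1.69), the last again on a gained H3K9me3 peak. No H3K4me3 contig peak was lost in both strains. Shares gained or lost in both strains were again not computed for whole lists.

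Apart from contig_24, the long patchy contigs had less H3K4me3 than chromosome interiors in every list. Contig_22 had 1.52% and 1.57% in dnmt1 against 0.701% and 0.727% in WT, contig_25 had 1.29% and 1.23% against 0.975% and 1.01%, and contig_26 had 4.16% and 3.96% against 3.16% and 3.29%, higher in dnmt1 of both strains. Contig_18, contig_21 and contig_23 had 2.00% to 2.50% in dnmt1 against 1.49% to 1.90% in WT, also higher in dnmt1 of both strains. Contig_19 had 4.65% and 4.17% against 3.45% and 4.32%, contig_20 5.48% and 5.11% against 4.71% and 5.24%, and contig_28 8.24% and 7.88% against 7.81% and 8.43%. Contig_32, outside its H3K9me1 block, had 4.48% and 4.28% against 4.11% and 4.51%, and contig_39, contig_42, contig_46 and contig_48 had 4.44% to 14.0% in dnmt1 against 4.22% to 13.3% in WT.

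The dense contigs held few H3K4me3 peaks. Contig_27 and contig_30 had 2 each in both dnmt1 lists, against 1 each in both WT lists. Contig_33 had 1 in each dnmt1 list and none in WT, and contig_40 had 1 in each dnmt1 list and in WT mt- and none in WT mt+. Over the dense contigs this came to 6 and 6 peaks in dnmt1, against 2 and 3 in WT.

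H3K4me1 was nearly absent from the contigs. Contig_24 held 2 peaks in dnmt1 mt+ and none in dnmt1 mt-, against 1 and 3 in WT. Single dnmt1 peaks lay on contig_48 in mt+ and on contig_35 in mt-. All 8 had folds between 1.72 and 2.12. The widest was the dnmt1 mt+ peak of contig_24 from 43970 to 45828, and the only WT mt+ peak lay on contig_24 from 45442 to 46205. With 1104 to 12718 peaks in the whole H3K4me1 lists, these few contig peaks allow no comparison by genotype.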

How the data were processed

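ChIP-seq peak lists of 18 libraries were analysed, 1 list per mark, genotype and strain; files of the 10 input libraries were not analysed here. Per the labels, a single input per genotype and strain served H3K4me1, H3K4me3 and H3K9me3. The sample titles themselves name inputs for H3K4me1 and H3K9me1 only. The submitters' processing notes name MACS2 2.2.7.1, Bowtie2 2.4.2, Trim Galore 0.6.7, deepTools 3.5.1 and Picard, without their settings. No genome build was given in the sources used here. Coordinates are those of the deposited lists, counted from 1. For each peak the authors deposited a display score, a fold enrichment over local background as a linear ratio, and −log10 p-values and −log10 q-values; the lowest −log10 q-value of each list was just above 2.

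Read totals were not used here. The background and the ChIP pileup in whole fragments (tolerance 0.05) were recovered from fold and p-value for 99.5% to 100% of the summits of each list. The lowest pileup of a contig peak in a list was 48 to 139 fragments. This recovery and the overlap counts were tested on simulated data. Kept peaks need an overlap of at least 1 bp, and gained peaks have none. Wilson 95% intervals cover counting error only. Python 3.11.15, pandas 2.3.3 and SciPy 1.17.1 were used.

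The contigs and lists were chosen with earlier results of these data known. Named contigs are the 12 longest and 9 further ones with at least 5 kb of H3K9me1 in a WT list; named peaks are the 3 widest WT mt+ peaks of a mark and up to 6 of highest fold lost or gained in both strains. Contigs named outside this rule were chosen after their values were seen. Alternatives were a −log10 q-value of at least 5, an overlap of at least 50%, WT lists of both strains, contigs of at least 20 kb, summit overlap and leaving out a contig. No sequence is shown, as no genome of this build was used here.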

Additional observations from a re-analysis of the deposited data

Results flagged for a closer look

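H3K4me3 on contigs went opposite ways in the strains: dnmt1 minus WT was 30 peaks and 15.7 kb in mt+, and -5 peaks and -4.43 kb in mt-. This was not particular to contigs: over the whole H3K4me3 lists dnmt1 had 106% (mt+) and 96.9% (mt-) of the WT length. H3K4me1 on contigs also went opposite ways, with 2 peaks and 2.00 kb in mt+, and -2 peaks and -1.15 kb in mt-, on 8 contig peaks in all, and its whole lists had 839% and 18.7% of the WT length. With 1 library per strain and genotype, neither difference was tested.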

How the results depend on the processing

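Of 140 recomputed values 114 stayed within their interval or within 1.5 times, 26 moved further and 0 reversed. Where at least 50% of a WT H3K9me1 contig peak had to be overlapped, kept shares were 9.81% and 8.70% in dnmt1 mt+ and mt- and 0.467% and 4.78% in set3; the cause was not tested. At a −log10 q-value of at least 5 the set3 mt+ share was 6.09%, gained H3K9me1 peaks numbered 3 in dnmt1 mt+ and 0 in set3, and gained H3K9me3 peaks 9 and 41 in dnmt1 mt+ and mt-. Against WT of both strains, 15 H3K4me3 peaks were gained in dnmt1 mt+. With fewer contigs, those of at least 20 kb, contigs without H3K9me1 numbered 16 in each dnmt1 list, 16 and 14 in set3 and 8 in each WT list, and those at least 50% covered 1 in dnmt1 mt- and 0 in set3. H3K4me3 summits inside H3K9me1 were 5.66% in WT mt-. The share of patchy WT length kept in set3 mt+ was 2.71% at the stricter q-value; the cause was not tested. Leaving contig_32 out of the patchy contigs and the stricter q-value by kind of contig were chosen after seeing the data. Peaks just under the authors' threshold are not in the lists, and no library has a replicate.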
